A study of Mus musculus with 24 samples.

Results

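Natural killer (NK) cells of the spleen were compared with CD4 T cells of the pancreatic lymph node in 9 of the 24 arrays of a mouse microarray series. All arrays labelled as NK cells (4) or as lymph node T cells (5) on either genetic background were taken. The backgrounds were B6g7, which is C57Bl/6 carrying the H2g7 haplotype (C57Bl/6-H2g7/g7), and NOD, the non-obese diabetic strain. The NK cells were 2 arrays from B6g7 and 2 from NOD, sorted from spleen as AsialoGM1-positive, CD45-positive cells that excluded the Hoechst dye. The B6g7 NK cell mice were labelled as carrying no transgene and were 6 weeks (array 1) and 3 weeks (array 2) old. For the NOD NK cells no age was given, and array 2 alone was described with the BDC2.5 transgenic T cell receptor. The T cells were 2 arrays from B6g7 (25 and 22 days) and 3 from NOD (24, 22 and 25 days), all from mice carrying the BDC2.5 transgene, a T cell receptor directed at the pancreatic islets. They were sorted as CD4-positive, Hoechst-negative cells with a high level of the BDC2.5 clonotype. RNA of all 9 samples was amplified in 2 rounds. Organ, transgene, sorting gate and, in part, age differed with the population and cannot be told apart from it. Nothing in the labels ties an array to an animal of its own. The p-values therefore describe the spread between arrays, part of which may be technical.

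T cells recognise peptides through a rearranged receptor that signals through the CD3 chains and the kinases and adaptors docked to them. NK cells have no rearranged receptor. They integrate signals of germline-encoded receptors, among them the Ly49, NKR-P1 and CD94/NKG2 lectin-like families, many of which signal through the adaptors DAP12 (Tyrobp) and the Fc receptor gamma chain (Fcer1g). On activation they release perforin and granzymes, which they share with cytotoxic T cells. Lymph node CD4 T cells before full activation keep a homing and quiescence programme and hold little cytotoxic machinery.

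The deposited values are linear intensities, 1 per probe set, and all levels here are log2 of them. The median intensity of the 9 arrays ran from 35.1 to 38.8. Over the 12422 probe sets tested, NK cell arrays correlated with each other at r of 0.971 to 0.988, T cell arrays at 0.926 to 0.987 and NK with T cell arrays at 0.884 to 0.938. These arrays share 1 design and 1 set of probes. A fold is given as "at least" where the lower population's mean was at or under 5.19. At or under that level, taken as the level of absent transcripts, lay 75% of 48 transcripts of unrelated organs. The level was 4.96 without the 2 T cell arrays with liver transcripts described below, but 5.19 is used throughout. The RNA controls differed between populations. The 3' Gapdh control probe set exceeded the 5' one by 4.89 ± 0.41 (SD, n = 4) log2 units in NK cells and by 3.16 ± 0.40 (SD, n = 5) in T cells, with no overlap (exact two-sided permutation test, p = 0.00794, the smallest that 126 splits allow). For Actb the values were 5.44 ± 0.10 and 2.42 ± 0.59 (exact permutation p = 0.00794). The gap was wider in every NK cell array than in any T cell array for both controls. With the Gapdh difference as a covariate, 22 probe sets passed in place of 2395 (19.3% of those tested), and 2108 of the 2395 kept their direction. The 22 included Ccl5, Klrd1, Tyrobp, Gzma, Cd244a, Fasl and Klrb1b, all higher, and Trbv1, lower. Of the 11 NK cell markers 3 passed with it. With the covariate 0 of 8 T cell receptor complex genes passed (median -0.10, without it -0.88). Of 13 T cell co-stimulatory and surface receptor genes 0 passed (median 0.14, without it -0.92). The Ly49 genes had a median of 2.81 (0 of 5 passed) and the NKR-P1, CD94, NKG2 and KLRG genes one of 2.18 (2 of 6 passed). The differences of Satb1, Egr1, Cd28, Cx3cr1, Lgals1, S100a8, S100a9 and Hba-a1 turned direction with the covariate. The covariate itself separates the populations without overlap, so its part and that of the population cannot be told apart. The descriptions of 3 NK and 4 T cell arrays carry a serial code, and every NK cell code was higher than every T cell code, so code and population cannot be told apart. The T cell array with the nearest code, NOD 3, was set against those 3 NK cell arrays, all also used in the main fit. In that comparison 329 probe sets passed, with the spread of all 24 arrays, and 2393 of the 2395 kept their direction; 7 of the 11 NK cell markers rose and 3 of 8 T cell receptor complex genes fell. RMA, a normalization for these arrays, is named for 3 of the 4 NK cell arrays and for none of the 5 T cell arrays; its part was not tested.

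Some arrays stood apart from their group. T cell arrays B6g7 1 and NOD 1 carried liver transcripts: Alb, which encodes the liver's main secreted protein, read 11.71 and 8.40 there and between 4.29 and 4.43 in the other 7 arrays. The mean level of 19 granulocyte markers was 7.97 in NK cell array NOD 2 and 7.03 in B6g7 2, against 6.09 in B6g7 1 and 5.23 in NOD 1. T cell transcripts also varied among NK cell arrays, with the higher values in array 1 of each background. Values without the 2 granulocyte-rich NK cell arrays, and without the 2 T cell arrays with liver transcripts, were computed for each count, an alternative chosen after seeing the data. They are given where they changed a count by more than 1.5 times.

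Of 8251 genes measured by a probe set of their own, 768 were higher in NK cells and 1006 lower (limma, Benjamini-Hochberg adjusted p under 0.05), 21.5% of the genes. Of these, 263 were higher and 430 lower by at least 1 log2 unit. Each list count below is to be read beside 9.31% of all genes higher and 12.2% lower. Arrays of the populations did not overlap for 2026 genes, 24.6%. The largest fitted difference was that of Tyrobp, the adaptor DAP12. Its level was 11.07, 11.64, 10.05 and 11.31 in NK cells and 5.02, 4.43, 4.05, 4.42 and 4.41 in T cells, in the order B6g7 1, B6g7 2, NOD 1 and NOD 2 for NK cells and B6g7 1, B6g7 2, NOD 1, NOD 2 and NOD 3 for T cells, the order of all such values. All T cell arrays were at the level of absent transcripts, and all NK cell arrays lay far above them. The difference was 6.5 ± 0.27 (SE) log2 units, at least 56.7-fold (adjusted p = 5.08e-06). Other large fitted differences were those of Anxa1, an annexin of granulocytes and other leukocytes (6.23), S100a9 (5.26), the chemokine gene Ccl5 (5.23), S100a8 (5.0), the Ly49 receptor gene Klra3 (4.94), the adhesion molecule gene Vcam1 (4.9), Lyl1, a transcription factor of blood progenitors and B cells (4.77), and Klrd1, which encodes CD94 (4.51). Of these genes Ccl5 alone had a T cell mean above the level of absent transcripts, so no order is drawn from the fitted values of the others. Other probe sets differed by 0.68 for Lyl1, by 1.37 and 0.35 for Vcam1, and by 5.95 and 1.33 for Anxa1. The largest fitted falls were those of Cd3d (-3.86), the diacylglycerol kinase gene Dgka (-3.57), the respiratory complex III subunit gene Uqcrh (-3.3) the ribosomal protein gene Rps7 (-3.2) and Tdrp (-2.84), whose other probe set differed by 0.02. Cd3g, Il6st and Trbv1, which encode T cell receptor or cell surface proteins, were also among the 15 largest fitted falls without overlap. Others were Sfmbt2, a Polycomb-related factor (-2.79), the midnolin gene Midn (-2.78), the interferon-induced Nmi (-2.62), the transcription factor gene Irf4 (-2.3) and cyclin D2, Ccnd2 (-2.26).

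**Figure D1:**
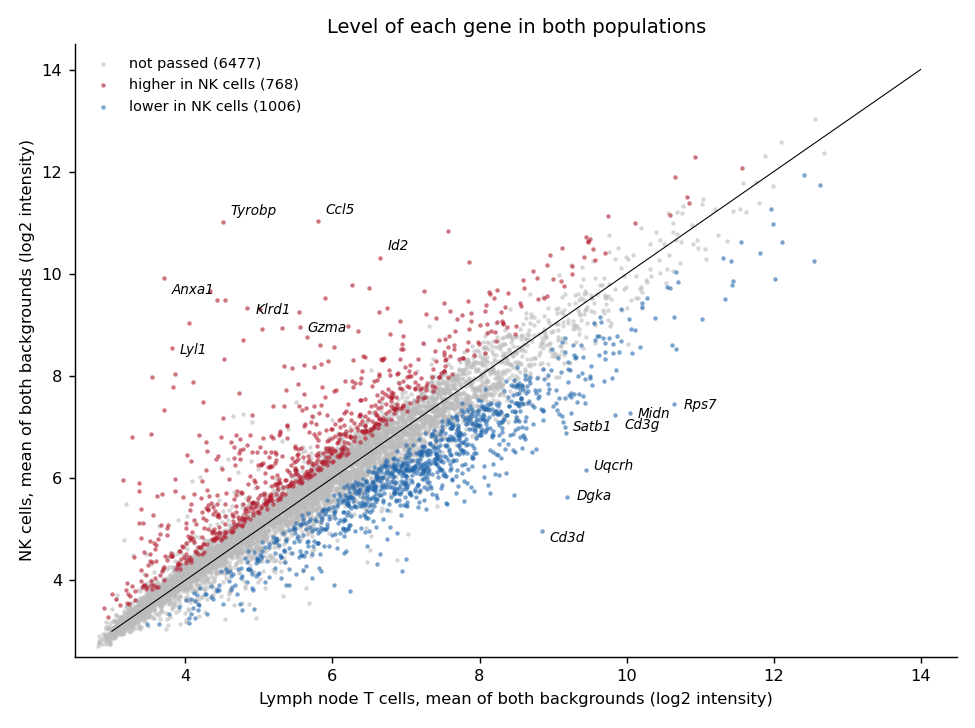
Each point is 1 of 8251 genes, with its mean level in lymph node T cells (horizontal, log2 intensity) and NK cells (vertical, log2 intensity), each the mean of both backgrounds; colours mark the adjusted p under 0.05. The most extreme of the 768 genes higher in NK cells lie farther from the diagonal than the most extreme of the 1006 lower. Tyrobp, Anxa1 and Ccl5 stand at one end and Cd3d and Dgka at the other. By at least 1 log2 unit, 263 genes were higher and 430 lower.

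Part of the T cell receptor complex genes were lower in NK cells. Of the 8 measured genes of the T cell receptor complex and co-receptors, 4 fell (Cd3d, Cd3g, Cd247 and Cd4) and none rose, with a median of -0.88 against 0.04 for all genes; 12.2% of all genes fell. Cd3d, a signalling chain of CD3, read 5.78, 3.59, 5.67 and 4.8 in NK cells and 9.0, 8.87, 8.66, 8.7 and 8.93 in T cells. NK and T cell arrays did not overlap, and the T cell arrays lay close together while the NK cell arrays spread widely. The difference was -3.86 ± 0.41 (SE) (at least 12.6-fold, adjusted p = 0.00057); its other probe set differed by -0.19. Cd3g, its partner chain, read 7.77, 5.6, 8.62 and 6.98 in NK cells and 9.93, 9.26, 10.56, 9.98 and 9.74 in T cells. The NK cell arrays spread widely, with the highest in NOD 1, and all lay under the T cell arrays (-2.58 ± 0.49 (SE), 5.97-fold lower, adjusted p = 0.00848). Cd247, the zeta chain that NK cells also use under Fc and natural cytotoxicity receptors, fell by 1.67 (adjusted p = 0.000346); its other probe set differed by 0.09, with both means under the level of absent transcripts. Cd3e did not pass (-0.72 ± 0.26 (SE), adjusted p = 0.088), with overlapping arrays. Cd4 was lower too (-1.03), but CD4 was a criterion of the sort. The variable segment gene Trbv1 was also lower (-2.29), and any link to the clonotype of the sort was not tested. Trbv1 belongs to a family of similar segments that one probe set may not separate, and its other probe set differed by 0.21. Cd8a and Cd8b1, the co-receptor of cytotoxic T cells, did not pass. Cd8b1 read 10.42, 5.07, 5.66 and 4.92 in NK cells and 8.1, 6.86, 4.84, 4.75 and 4.73 in T cells, highest in NK cell array B6g7 1. With the 2 granulocyte-rich NK cell arrays left out, 3 of the 8 fell and 1 rose.

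The control regions upstream of Cd3d and Cd3g are shown because the genes are neighbours on chromosome 9, transcribed in opposite directions, and were among the genes that fell most. The 250 bases before each start are from RefSeq's GRCm38.p6, the C57BL/6J reference, and the NOD sequence was not read. Capitals mark a T-box core (AGGTGT) or a TCF/LEF core (CTTTGA) on either strand. For Cd3d the region is chr9:44981536-44981785 (plus strand), and for Cd3g it is chr9:44980432-44980681 (minus strand).
Cd3d: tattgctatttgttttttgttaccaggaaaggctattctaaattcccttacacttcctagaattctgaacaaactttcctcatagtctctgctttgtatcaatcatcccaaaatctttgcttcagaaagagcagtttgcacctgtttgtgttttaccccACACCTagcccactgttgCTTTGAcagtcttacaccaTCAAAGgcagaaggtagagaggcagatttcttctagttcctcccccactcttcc
Cd3g: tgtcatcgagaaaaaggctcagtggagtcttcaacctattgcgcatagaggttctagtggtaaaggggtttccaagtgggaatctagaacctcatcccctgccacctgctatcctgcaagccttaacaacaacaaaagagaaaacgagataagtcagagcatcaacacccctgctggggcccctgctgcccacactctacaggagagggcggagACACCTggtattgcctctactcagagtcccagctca
Both regions hold the T-box core, which stands in 13.6% of all genes' regions of that length and in 7 of 22 T programme genes that fell (31.8%). The region of Cd3d also holds the TCF/LEF core, found in 15.8% of all genes and in 2 of the 22. A match is a run of letters and says nothing of binding.

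**Figure D2:**
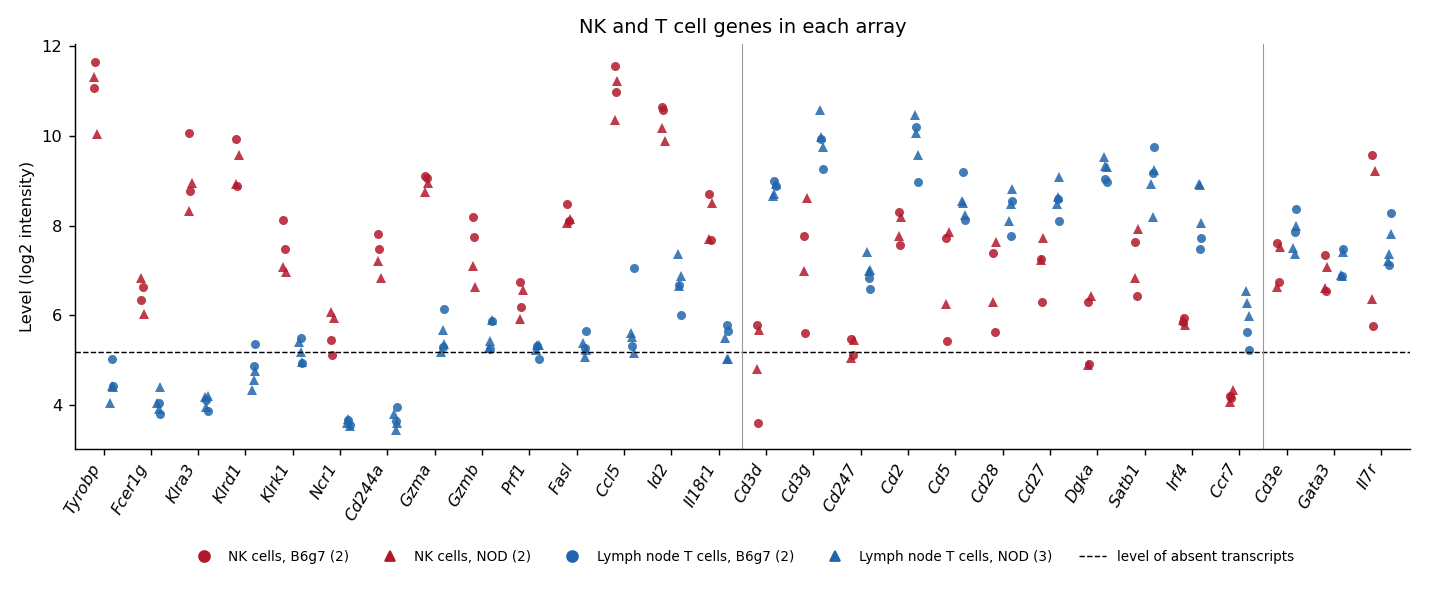
Level in each array (vertical, log2 intensity) of 28 genes (horizontal), NK cells in red and T cells in blue, circles B6g7 and triangles NOD; the dashed line is the level of absent transcripts, 5.19. The left block holds NK genes without overlap, the middle block T cell genes without overlap, and the right block Cd3e, Gata3 and Il7r, whose arrays overlap.

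Some receptors that amplify or restrain T cell signals were lower. Of 13 measured co-stimulatory and surface receptor genes, 7 fell and 2 rose (median -0.92). Cd2, an adhesion and co-stimulatory molecule, fell by 1.87 (adjusted p = 0.0039), Cd27 by 1.4 (0.00454) and Cd96 by 1.28 (0.00528). Cd28, the main co-stimulatory receptor, read 7.39, 5.63, 7.64 and 6.29 in NK cells and 7.77, 8.55, 8.09, 8.49 and 8.82 in T cells. The highest NK cell arrays came close to the lowest T cell array without reaching it (-1.57 ± 0.41 (SE), adjusted p = 0.0296). Cd28 lost its call without any 1 array other than NK cell arrays B6g7 1 and NOD 1 and T cell arrays B6g7 1 and NOD 1 (adjusted p up to 0.107). Cd5, a restraining receptor that scales with T cell receptor signal, differed by -1.7 (adjusted p = 0.0489). Cd5 lost its call without any 1 array other than NK cell arrays B6g7 1 and NOD 1 (adjusted p up to 0.161). Ctla4, an inhibitory receptor, fell by 1.49, at least 1.13-fold. Cd7, also found on NK cells, rose by 0.94. Cd160, another receptor of both lineages, passed at 4.87 in NK cells and 4.04 in T cells, both at or under the level of absent transcripts. Thy1 differed by -0.85, with overlapping arrays, and did not pass. When the 2 granulocyte-rich NK cell arrays were left out, 1 of the 13 fell and 2 rose.

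Some signalling and activation genes were lower. Among 17 genes of T cell receptor signalling, 4 fell and 1 rose (23.5% and 5.88%, median -0.20). Of all genes 12.2% fell and 9.31% rose. Dgka, which removes diacylglycerol and so limits the signal, read 6.31, 4.92, 6.42 and 4.89 in NK cells and 9.03, 8.96, 9.53, 9.32 and 9.31 in T cells. The populations were far apart (-3.57 ± 0.35 (SE), 11.9-fold, adjusted p = 0.000392). Prkcq, the protein kinase C of the T cell synapse, fell by 1.19. Lat, the adaptor of both lineages, differed by 0.33 and Fyn by -0.41, and neither passed. Sh2d2a, an adaptor of T and NK cells, rose by 0.67. Of 22 activation genes 8 fell and none rose: Irf4, a factor induced by receptor signals, read 5.85, 5.94, 5.78 and 5.89 in NK cells and 7.47, 7.71, 8.92, 8.9 and 8.06 in T cells, with the NK cell arrays close together and below all T cell arrays (-2.3 ± 0.26 (SE), 4.91-fold, adjusted p = 0.000729). Tnfsf11, the cytokine RANKL, fell by 2.18, at least 1.78-fold, and Tnfrsf18 (GITR) by 0.97. Batf fell by 0.75 and the immediate early Nr4a1 by 0.92. Among 9 regulatory T cell genes, 2 fell (Ctla4 and Tnfrsf18) and Nrp1 alone rose. Sh2d2a lost its call without NK cell array NOD 2 (adjusted p = 0.0593). Tnfrsf18 lost its call without either of NK cell arrays NOD 1 and NOD 2 (adjusted p up to 0.0758). Without the 2 granulocyte-rich NK cell arrays 1 signalling gene and 5 activation genes fell, and none of either list rose. None of the 9 regulatory T cell genes passed in that fit, Ctla4 and Tnfrsf18 included.

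Of 17 transcription factors of the T lineage 5 were lower and 1 higher in NK cells (median -0.33). Satb1, a chromatin organiser of T cells, read 7.63, 6.44, 7.91 and 6.84 in NK cells and 9.17, 9.75, 8.92, 8.18 and 9.24 in T cells. All T cell arrays lay above all NK cell arrays (-1.87 ± 0.38 (SE), adjusted p = 0.0107). Egr1, an immediate early factor, fell by 1.8 and Ets2 by 0.95; another probe set of Egr1 differed by 0.30. Gata3 (-0.23) and Zbtb7b, the factor of the CD4 choice (0.16), did not pass. Neither did Lef1, at -0.11, though its other probe set differed by -1.30; its direction turned with quantile normalization (0.06). Klf2, which sustains exit from lymphoid organs, rose by 0.67. Of 13 genes of naive state and homing, 4 fell and 1 rose. Ccr7, the receptor that guides cells into lymph nodes, read 4.21, 4.15, 4.33 and 4.06 in NK cells and 5.64, 5.23, 6.54, 6.28 and 5.98 in T cells (-1.7 ± 0.2 (SE), at least 1.58-fold lower, adjusted p = 0.000802). NK cell arrays were all at the level of absent transcripts and all T cell arrays above them. The interleukin 7 receptor gene Il7r read 9.57, 5.77, 9.21 and 6.37 in NK cells and 7.12, 8.27, 7.21, 7.37 and 7.8 in T cells, and the NK cell arrays lay on both sides of the T cell arrays. With the 2 granulocyte-rich NK cell arrays left out, 3 of the transcription factors fell, and of the homing genes 1 fell and 2 rose; without the 2 T cell arrays with liver transcripts 2 homing genes fell and 1 rose.

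Nearly all measured lectin-like NK receptor genes were higher in NK cells. Of 5 measured Ly49 genes 4 rose (median 2.02), against 9.31% of all genes rising. Klra3 read 10.07, 8.77, 8.95 and 8.32 in NK cells and 4.11, 3.86, 4.18, 3.95 and 4.19 in T cells (4.94 ± 0.3 (SE), at least 14.3-fold, adjusted p = 4.51e-05). Klra7 rose by 2.37, Klra6 by 2.02 and Klra5 by 1.72; Klra2 did not pass and was at 3.3 in NK cells and 3.17 in T cells. Ly49 genes are close in sequence, so a probe set may read more than 1 of them. All 6 genes of the NKR-P1, CD94, NKG2 and KLRG families rose (median 2.23). Klrd1 read 9.93, 8.87, 9.56 and 8.92 in NK cells and 4.87, 5.36, 4.33, 4.55 and 4.77 in T cells, a rise of 4.51 ± 0.25 (SE) (at least 17.5-fold, adjusted p = 2.92e-05). All NK cell arrays lay far above all T cell arrays. Klrk1, the activating receptor NKG2D, rose by 2.18 (4.53-fold), Klrg1 by 2.28, and Klrb1b by 2.56. Klrc1, the NKG2A gene that pairs with CD94, passed at 4.99 in NK cells and 4.39 in T cells, both under the level of absent transcripts. Of 9 other NK surface receptor genes, 5 rose and 1 fell. Cd244a, the receptor 2B4, read 7.81, 7.49, 6.83 and 7.2 in NK cells and 3.64, 3.96, 3.8, 3.44 and 3.61 in T cells (3.6 ± 0.15 (SE), at least 4.4-fold, adjusted p = 5.57e-06). Ncr1, the natural cytotoxicity receptor NKp46, read 5.45, 5.12, 5.94 and 6.08 in NK cells and 3.67, 3.55, 3.6, 3.7 and 3.54 in T cells, at least 1.37-fold higher. All NK cell arrays lay above all T cell arrays, with NOD higher than B6g7 among the NK cells. Lilr4b, a receptor of myeloid and NK cells, rose by 4.48. Fcgr3, the Fc receptor of antibody-directed killing, did not pass (0.17). When the 2 granulocyte-rich NK cell arrays were left out, the Ly49 count was 4 and the NKR-P1 and CD94 count 5, and none of the 9 other surface receptor genes fell. Il2rb, the shared beta chain of the interleukin 2 and 15 receptors, was at 5.37 in NK cells and 5.16 in T cells, close to the level of absent transcripts, and did not pass. The NK cell integrin genes Itga2 (4.57 in NK cells and 4.31 in T cells) and Itgam (4.41 in NK cells and 4.12 in T cells) were under it in both and did not pass.

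Of 21 adaptor and proximal signalling genes 4 rose and 2 fell, with a median of -0.17; of all genes 9.31% rose and 12.2% fell. Fcer1g read 6.34, 6.63, 6.02 and 6.84 in NK cells and 4.04, 3.81, 4.04, 3.92 and 4.41 in T cells (2.42 ± 0.18 (SE), at least 2.4-fold), with all NK cell arrays above all T cell arrays. Syk, the kinase that docks on it, rose by 0.93 (1.91-fold) and Plcg2 by 0.79. Cd247 and Vav1 fell, Vav1 by 0.58. Macrophages and B cells also express Tyrobp, Fcer1g, Syk and Plcg2, and their markers were higher in NK cell arrays (16 of 21 macrophage and 12 of 18 B cell genes); the part of those cells in these results was not tested. Vav1 lost its call without any 1 array other than T cell arrays B6g7 1 and NOD 3 (adjusted p up to 0.129). Without the 2 granulocyte-rich NK cell arrays 2 of the 21 rose and 1 fell.

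Of 19 measured genes of granules and death ligands 9 rose in NK cells, 1 fell and 9 did not pass (median 0.45). In the comparison with the T cell array of the nearest serial code, 4 rose. Gzma, granzyme A, read 9.1, 9.07, 8.95 and 8.75 in NK cells and 5.3, 6.14, 5.19, 5.67 and 5.35 in T cells, with the NK cell arrays close together and far above the T cell arrays (3.41 ± 0.17 (SE), 10.6-fold, adjusted p = 2e-05). Gzmb rose by 1.82 (3.53-fold), Prf1 (perforin) by 1.1 (2.14-fold) and Fasl, the ligand of the death receptor Fas, by 2.86 ± 0.12 (SE) (7.24-fold, adjusted p = 5.91e-06). Fasl read 8.49, 8.11, 8.14 and 8.06 in NK cells and 5.27, 5.65, 5.39, 5.07 and 5.22 in T cells. Ctsw, a cathepsin of cytotoxic cells, rose by 2.53 and Ctsc, the cathepsin that activates granzymes, by 2.31. The other probe sets of Ctsc, under the level of absent transcripts, differed by 0.41 and 0.37 and did not pass. Gzmc and Gzmd did not pass, with every array under the level of absent transcripts. Stxbp2, which takes part in granule fusion, fell by 0.68, though its other probe set differed by 0.27. Fas itself passed at 3.52 in NK cells and 4.74 in T cells, both under the level of absent transcripts.

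The regions before Gzma, Gzmb and Prf1 are printed because these rose together, with capitals marking a Runx core (TGTGGT) or a T-box core (AGGTGT) on either strand. They lie at chr13:113100982-113101231 (minus strand), chr14:56262335-56262584 (minus strand) and chr10:61297586-61297835 (plus strand) of GRCm38.p6.
Gzma: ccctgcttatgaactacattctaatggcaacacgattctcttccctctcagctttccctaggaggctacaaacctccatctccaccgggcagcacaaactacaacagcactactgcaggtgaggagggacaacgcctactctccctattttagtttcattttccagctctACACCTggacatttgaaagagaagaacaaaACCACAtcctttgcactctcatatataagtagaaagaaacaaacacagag
Gzmb: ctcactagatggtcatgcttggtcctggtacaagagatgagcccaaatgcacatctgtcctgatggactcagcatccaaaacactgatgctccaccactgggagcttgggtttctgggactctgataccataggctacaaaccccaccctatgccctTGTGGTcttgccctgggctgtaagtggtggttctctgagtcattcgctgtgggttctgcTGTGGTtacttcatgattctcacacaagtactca
Prf1: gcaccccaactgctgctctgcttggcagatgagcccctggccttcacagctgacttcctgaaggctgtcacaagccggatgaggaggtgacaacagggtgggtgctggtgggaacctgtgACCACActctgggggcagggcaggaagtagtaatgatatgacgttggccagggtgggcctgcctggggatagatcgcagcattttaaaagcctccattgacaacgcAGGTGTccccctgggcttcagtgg
Each holds a Runx core, which stood in 15.9% of all genes' regions and in 9 of 33 NK programme genes that rose (27.3%), against 2 of 22 T programme genes that fell (9.09%). The T-box core, found in Gzma and Prf1, stood in 5 of the 33 NK programme genes (15.2%), near the 13.6% of all genes. The TCF/LEF core stood in 6 of the 33 (18.2%). The last motif searched, an ETS form (GAGGAAG), stood in 7 of the 33 (21.2%), 4 of the 22 (18.2%) and 12% of all genes. Tyrobp, Klrd1 and Ccl5 had no entry in the promoter table.

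Among transcription factors and cytokine receptors of the NK programme, some genes were higher and some lower. Of 19 factors 8 rose and 1 fell (42.1% and 5.26%), against 9.31% and 12.2% of all genes. The 8 included Spi1, Cebpa and Irf8, which myeloid cells also express, and the part of those cells was not tested. Among the cytokine receptor and signalling genes the shares were 20.6% and 14.7%, the latter near that of all genes. Id2, which restrains E proteins and is needed for NK cells, read 10.64, 10.57, 9.88 and 10.16 in NK cells and 6.68, 6.0, 7.38, 6.66 and 6.87 in T cells (3.61 ± 0.28 (SE), 12.2-fold, adjusted p = 0.000126). The lowest NK cell array stood well over the highest T cell array, NOD 1. Eomes, a T-box factor of NK cell maturation, rose by 0.85 (adjusted p = 0.027). Eomes lost its call without any of NK cell array NOD 1 and T cell arrays B6g7 2 and NOD 2 (adjusted p up to 0.0737). Hopx rose by 1.61 and Irf8, a factor of myeloid and B cells as well, by 1.87. Irf1 fell by 1.77 (3.41-fold). Of 34 cytokine receptor and signalling genes 7 rose and 5 fell. The largest rise in this list, 3.09, was that of Csf1r, the macrophage growth factor receptor gene. Il18r1, a chain of the interleukin 18 receptor, read 8.71, 7.68, 8.49 and 7.7 in NK cells and 5.79, 5.64, 5.49, 5.03 and 5.04 in T cells (2.72 ± 0.25 (SE), 6.57-fold). Its partner Il18rap rose by 1.25. Il6st, the shared gp130 chain of interleukin 6 receptors, fell by 2.46 (5.49-fold), with another probe set at 0.13. Il4ra fell by 1.14 (other probe set 0.33), Stat3 by 0.92 and Stat6 by 0.87. Stat6 lost its call without NK cell array NOD 2 (adjusted p = 0.055). With the 2 granulocyte-rich NK cell arrays left out, 2 of the 34 fell and 7 rose.

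Some chemokine genes were higher and some lymphocyte cytokine genes lower in NK cells. Of 19 cytokine and chemokine genes 6 rose and 4 fell. Ccl5, a chemokine stored by cytotoxic lymphocytes, read 11.56, 10.97, 11.23 and 10.35 in NK cells and 5.31, 7.06, 5.62, 5.52 and 5.16 in T cells (5.23 ± 0.35 (SE), 37.6-fold, adjusted p = 7.95e-05). T cell array B6g7 2 stood above the other T cell arrays, and all were far below the NK cell arrays. Ccl3 rose by 0.97, Ccl4 by 0.65 and Xcl1 by 0.67. Ifng, the hallmark cytokine of NK cells, passed at 4.21 in NK cells and 3.39 in T cells, both means under the level of absent transcripts, so no fold is given. Tnf fell by 0.72 and Lta by 1.04, with another probe set of Lta at 0.56. Ccr2, a receptor of inflammatory homing, read 8.21, 7.56, 6.95 and 7.22 in NK cells and 3.99, 4.26, 4.13, 4.47 and 4.44 in T cells (3.2 ± 0.23 (SE), at least 4.89-fold). All T cell arrays were at the level of absent transcripts. Cx3cr1, a receptor of mature NK cells, passed at a difference of 0.42. Of 19 chemokine and lipid mediator receptor genes 4 rose and 3 fell (21.1% and 15.8%, against 9.31% and 12.2% of all genes). Without the 2 granulocyte-rich NK cell arrays 1 of these receptor genes rose and 1 fell. Ccl4 lost its call without any 1 array other than NK cell array B6g7 2 and T cell arrays B6g7 2 and NOD 3 (adjusted p up to 0.134). Lta lost its call without either of NK cell arrays B6g7 2 and NOD 2 (adjusted p up to 0.0633). Cx3cr1 lost its call without any 1 array other than T cell arrays B6g7 1 and NOD 3 (adjusted p up to 0.0876). Of the 19 cytokine and chemokine genes, 1 fell without the 2 granulocyte-rich NK cell arrays, and 1 without the 2 T cell arrays with liver transcripts.

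More adhesion genes were higher than lower. Of 28 integrin and adhesion genes 9 rose and 2 fell: Cadm1, a cell adhesion molecule, rose by 2.76 ± 0.23 (SE), the beta 1 integrin gene Itgb1 by 1.34, the tetraspanin gene Cd9 by 1.73 and the CD11c gene Itgax by 1.07. Other probe sets of Cadm1 differed by 0.22 and 0.49 and that of Itgb1 by 0.51, and none of these passed. Icam2 fell by 1.33 and Itgb7 by 0.66, whose other probe set differed by 0.13. Among 27 annexin, S100 and cytoskeleton genes 10 rose and 2 fell. Anxa2 rose by 2.6 ± 0.19 (SE), Ahnak by 2.34, S100a6 by 1.75 and Lgals1 (galectin 1) by 1.65, while Anxa5 fell by 1.24. Itgb7 lost its call without any of NK cell arrays B6g7 2, NOD 1 and NOD 2 and T cell array B6g7 1 (adjusted p up to 0.105). Lgals1 lost its call without NK cell array NOD 2 (adjusted p = 0.0601). When the 2 granulocyte-rich NK cell arrays were left out, 3 of the adhesion genes rose and 1 fell, and 6 annexin, S100 and cytoskeleton genes rose; without the 2 T cell arrays with liver transcripts 4 of the latter fell.

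Part of the class I presentation genes were lower and part of the class II genes higher in NK cells. Of 15 class I and peptide loading genes 7 fell and none rose (median -0.45). Psmb9, an immunoproteasome subunit, read 6.92, 7.02, 7.05 and 6.97 in NK cells and 8.77, 8.97, 9.77, 9.69 and 8.93 in T cells (-2.2 ± 0.19 (SE), 4.59-fold, adjusted p = 0.000224), with the NK cell arrays nearly equal. Tapbp (tapasin) fell by 1.98 and Psme1 by 1.58, though their other probe sets were at 0.22 and 0.09, and 0.11. The class I heavy chain gene H2-D1 differed by -0.9, and its other probe sets by -1.43 and 1.37. Interferon-gamma-induced genes, which share Psmb9, Tapbp and Psme1 among others with that list, fell in 7 of 21 cases and rose in 2: Gbp2, a GTPase, fell by 1.74, while Gbp3 rose by 1.11. Of 20 type I interferon genes, 4 fell (20%, against 12.2% of all genes). Without the granulocyte-rich NK cell arrays, 3 of the 15 class I genes and none of the 20 type I interferon genes fell, and of the interferon-gamma-induced genes 5 fell and none rose; without the 2 T cell arrays with liver transcripts 2 of the 20 fell and 1 rose. H2-D1 lost its call without any 1 array other than NK cell array B6g7 1 and T cell arrays B6g7 1 and NOD 3 (adjusted p up to 0.142). Gbp3 lost its call without any 1 array other than T cell arrays B6g7 1 and B6g7 2 (adjusted p up to 0.115). Of 14 class II genes 8 rose and none fell. Cd74, the invariant chain, read 8.57, 9.27, 10.06 and 10.21 in NK cells and 5.78, 6.14, 5.43, 5.71 and 6.33 in T cells (3.7 ± 0.31 (SE), 13-fold). H2-Aa rose by 3.68. B cells and macrophages express these genes, and their markers were higher in the same arrays. Without the 2 granulocyte-rich NK cell arrays 5 of the 14 rose.

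**Figure D3:**
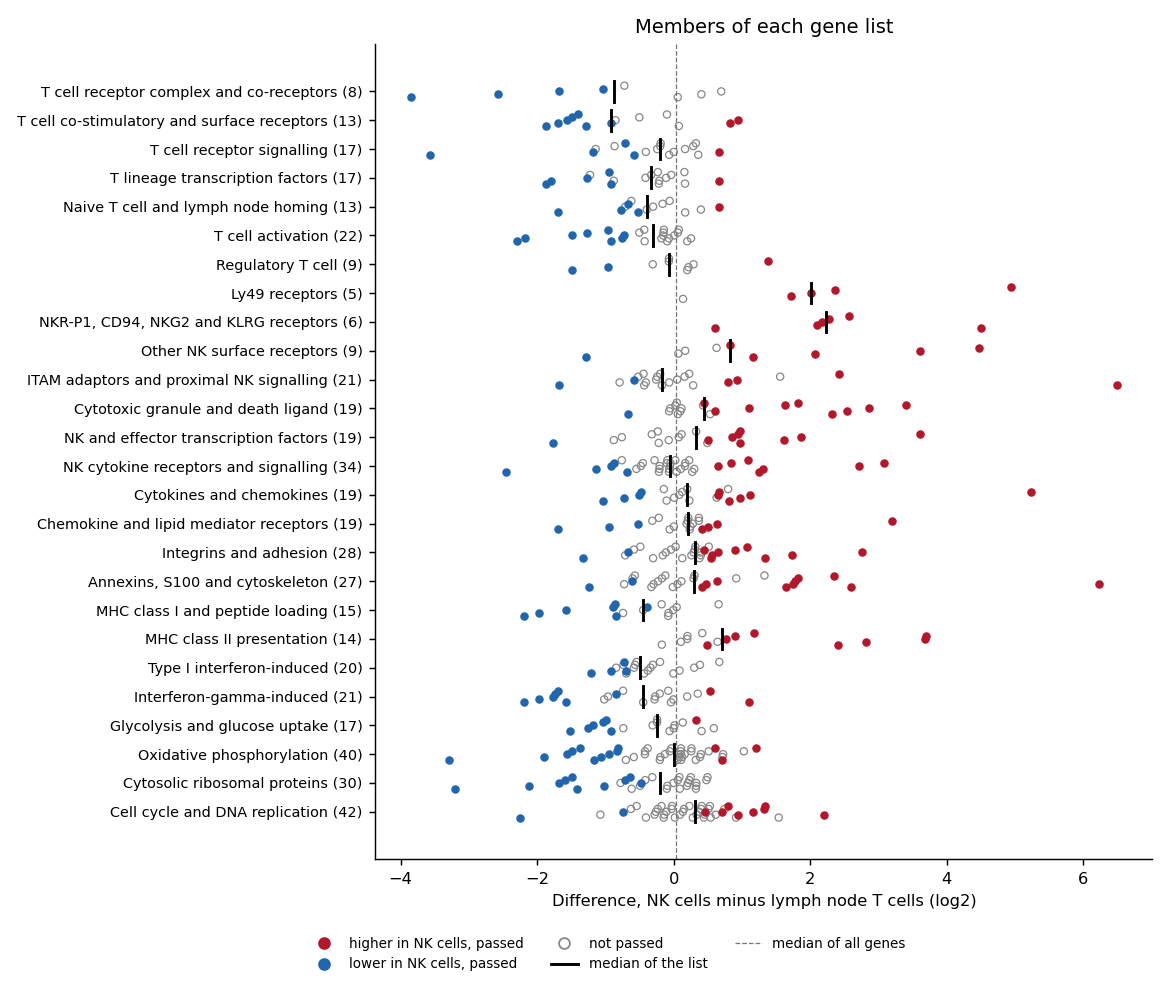
Difference of each measured member (horizontal, log2, NK minus T cells) in 26 gene lists, filled where the adjusted p was under 0.05 and open where not, with the median of the list as a bar and that of all genes (0.04) as a dashed line. The Ly49 (median 2.02) and NKR-P1 (2.23) lists lie farthest to the right, and the T cell receptor complex (-0.88) and co-stimulatory (-0.92) lists farthest to the left.

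Part of the ribosomal and metabolic genes were lower in NK cells. Of 30 cytosolic ribosomal protein genes 10 fell and none rose (median -0.21), led by Rps7, at 7.46 in NK cells and 10.65 in T cells, and Rps3a1 (-2.12). All NK cell arrays of Rps7 lay far below the T cell arrays. Rps24, from the same list, was at 13.04 in NK cells and 12.56 in T cells and did not pass. Of 17 glycolysis genes 6 fell and 1 rose: Ldha fell by 1.51, Pgk1 by 1.26 and Hk1 by 1.19. In oxidative phosphorylation 10 of 40 fell, with Uqcrh at -3.3 ± 0.18 (SE) and Cox7a2 at -1.9, and 3 rose, Cox6a1 among them (1.21). Those shares, 25% and 7.5%, stand against 12.2% and 9.31% of all genes. Cell cycle genes rose in 8 of 42 and fell in 2. Mki67, a proliferation marker, read 5.45, 7.8, 6.4 and 7.74 in NK cells and 4.49, 5.19, 4.87, 3.96 and 4.74 in T cells (2.2 ± 0.5 (SE), at least 3.15-fold), and Plk1, a mitotic kinase, rose by 1.32. The other probe sets of Plk1 differed by 0.09 and 0.32 and did not pass. Mki67 lost its call without NK cell array NOD 2 (adjusted p = 0.0651). Pgk1 lost its call without any of NK cell arrays B6g7 1, NOD 1 and NOD 2 and T cell array NOD 2 (adjusted p up to 0.0851). Mki67 was highest in NK cell arrays B6g7 2 and NOD 2, which also carried the most granulocyte and erythroid transcripts, and without them the cell cycle count was 1 rise and 1 fall. In the same fit 1 glycolysis gene fell and none rose, and 7 oxidative phosphorylation genes fell and none rose. Without the 2 T cell arrays with liver transcripts, 4 cell cycle genes rose and 5 fell, 9 oxidative phosphorylation genes rose and 12 fell, and 3 ribosomal protein genes rose and 8 fell.

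Immediate early, stress and survival genes were found on both sides. Of all genes 9.31% rose and 12.2% fell. Of 30 immediate early and stress genes 5 rose and 8 fell, among them Klf4, a factor of monocytes, which rose by 2.17 (at least 1.74-fold; other probe set -0.09, under the level of absent transcripts), and Egr1, which fell. Of 19 apoptosis regulators 4 rose and 5 fell. Mcl1, a survival factor of lymphocytes, fell by 1.62 (3.07-fold, adjusted p = 0.000274) and Casp8, the caspase of death receptors, by 1.37. Casp1, the caspase of the inflammasome, rose by 1.29 and the survival kinase gene Pim1 by 1.25 (2.37-fold, adjusted p = 0.000357). Another probe set of Pim1 differed by 0.25 and did not pass. Bcl2 did not pass, at 7.29 in NK cells and 7.95 in T cells, while another of its probe sets passed as higher in NK cells (0.39, adjusted p = 0.0446; 7.33 in NK cells and 6.94 in T cells). With the 2 granulocyte-rich NK cell arrays left out, 2 immediate early and stress genes rose and 4 fell, and 2 apoptosis regulators rose and 3 fell.

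Many markers of other blood cells were higher in NK cell arrays. The NK cell list, 10 of 11 of which rose, averaged 7.35 to 7.99 in the NK cell arrays and 4.87 to 5.05 in T cells. Macrophage markers (16 of 21 rose) averaged 6.88 to 7.66 against 5.25 to 5.62, B cell markers (12 of 18) 6.11 to 6.68 against 5.17 to 5.32, granulocyte markers (6 of 19) 5.23 to 7.97 against 4.35 to 4.76, and erythroid markers (3 of 15) 6.25 to 7.76 against 5.63 to 5.93. CD4 T cell markers averaged 5.83 to 6.85 in NK cells and 7.39 to 7.59 in T cells. In NK cells Csf1r, the macrophage growth factor receptor, rose by 3.09 (8.5-fold; another probe set, under the level of absent transcripts, differed by -0.04), Spic, a factor of spleen red pulp macrophages, by 3.5 and Vcam1 by 4.9. The B cell genes Blk (3.81), Ms4a1 (2.63) and Cd79b (2.62) rose, while Cd79a differed by 0.41 and did not pass, and the antibody genes Igkv6-23 (4.0) and Jchain (2.98) rose. S100a8, a granulocyte protein, read 9.04, 11.29, 5.03 and 12.58 in NK cells and 4.39, 4.49, 4.25, 4.45 and 4.56 in T cells: NK cell array NOD 1 lay close to the T cell arrays and NOD 2 highest. Its difference of 5.0 ± 1.31 (SE) (adjusted p = 0.0304) passed with the NK cell arrays far apart. S100a8 lost its call without any 1 array other than NK cell arrays B6g7 1 and NOD 1 and T cell arrays B6g7 1 and NOD 3 (adjusted p up to 0.0823). S100a9 lost its call without either of NK cell array B6g7 2 and T cell array B6g7 2 (adjusted p up to 0.0585). Hba-a1, alpha globin, rose by 3.31. In bulk RNA, fewer cells of a type cannot be told from less RNA per cell, and the part of these cells in the differences between NK and T cells was not tested. When the 2 granulocyte-rich NK cell arrays were left out, 2 granulocyte and 7 B cell markers rose, and without the 2 T cell arrays with liver transcripts 1 granulocyte marker did. Dendritic cell markers rose in 4 of 11 cases, plasma cell markers in 4 of 6, platelet markers in 3 of 8 and mast cell and basophil markers in 3 of 15. In the fit without the 2 granulocyte-rich NK cell arrays 1 dendritic cell, 1 platelet and 1 mast cell and basophil marker rose, and 2 of the 11 CD4 T cell markers fell in place of 6. Of 3 gamma-delta T cell markers 1 rose, or 2 in that fit and none without the 2 T cell arrays with liver transcripts. The 2 CD8 T cell markers and 9 pancreas markers did not pass, but 1 CD8 marker rose in the first of these fits and 2 pancreas markers in the second. Of the 48 transcripts of unrelated organs 2 rose and 2 fell; in the first fit 1 fell and in both none rose. Lymph node stroma and endothelium markers (10 genes) averaged 4.96 to 5.07 in NK cells and 4.76 to 5.0 in T cells.

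**Figure D4:**
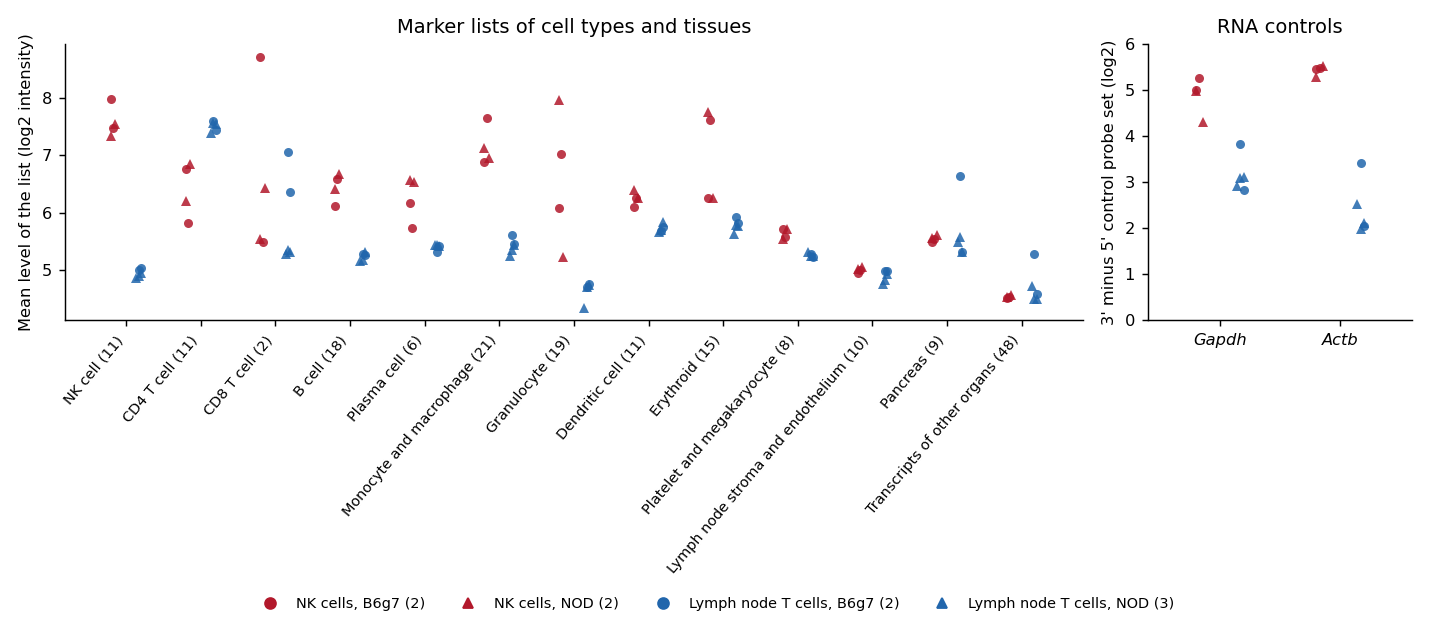
Left, mean level of each marker list (vertical, log2 intensity) in each array, with the number of genes in brackets; right, 3' minus 5' control probe sets of Gapdh and Actb (vertical, log2). Red is NK cells and blue T cells, circles B6g7 and triangles NOD; the granulocyte list spans 5.23 to 7.97 in NK cells and the Gapdh controls separate the populations (4.32 to 5.27 against 2.83 to 3.84).

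All 1774 genes that passed had the same sign in B6g7 and NOD. They were called with the arrays of both backgrounds together, which favours such agreement, so it is no independent test. With the arrays of one background alone, 478 probe sets passed in B6g7 and 1459 in NOD, 410 of them in both with the same sign. The interaction of population and background passed for 0 of 12422 probe sets (0%) by limma, with 476 at an unadjusted p under 0.05. The lowest interaction p values went to Klrb1a, Dnajc3, Ryr2, AI506816 and Tnfrsf1b. Klrb1a, an NKR-P1 receptor gene, read 8.28, 7.65, 4.8 and 4.6 in NK cells and 4.26, 3.85, 4.0, 4.28 and 3.99 in T cells. NK cells from B6g7 were high and those from NOD close to the T cell arrays. Its rise was 3.91 in B6g7 and 0.61 in NOD (interaction 3.31 ± 0.32 (SE), adjusted p = 0.143). Over both, the difference was 2.11 ± 0.58 (SE) (adjusted p = 0.0371). Klrb1a lost its call without any 1 array other than NK cell arrays NOD 1 and NOD 2 and T cell arrays NOD 2 and NOD 3 (adjusted p up to 0.0975). Leaving out T cell array B6g7 2 brought 189 interaction probe sets past the threshold.

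**Figure D5:**
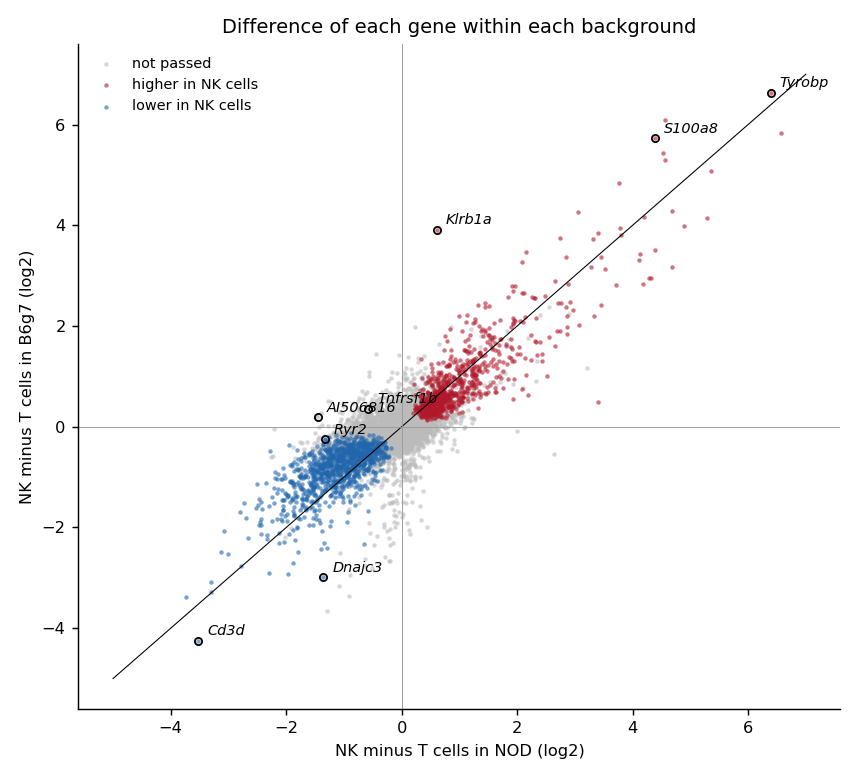
Difference of each of 8251 genes, NK minus T cells, within NOD (horizontal, log2) and within B6g7 (vertical, log2), with the line of equal size; colours mark the adjusted p under 0.05. Klrb1a lies far above the line (3.91 in B6g7, 0.61 in NOD), and the other circled genes are those with the smallest interaction p plus Tyrobp, Cd3d and S100a8.

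T cells sorted from the pancreas of the same transgenic mice, also amplified in 2 rounds, gave a further set of levels for the same genes, with no test. Tyrobp averaged 5.08 in B6g7 and 5.14 in NOD there, Klrd1 5.5 and 4.61, and Gzma 6.21 and 5.82, all nearer to the lymph node T cells than to NK cells. Gzmb (6.22 and 7.02) and Ccl5 (6.91 and 7.91) averaged higher than in the lymph node T cells. Single arrays could differ from this: lymph node T cell array B6g7 2 read 7.06 for Ccl5. Cd3d averaged 8.75 and 7.88 in the pancreatic T cells of B6g7 and NOD.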

How the data were processed

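RNA of 4 splenic NK cell and 5 lymph node T cell samples had been hybridised to 1-colour Affymetrix MG-U74Av2 arrays. The authors deposited 1 linear intensity per probe set and array. The submitters' processing notes list RMA for 3 of the 4 NK cell arrays and 0 of the 5 T cell arrays; for the others the sources used here name no method. The smallest deposited intensity was 5.70, so log2 was taken without a pseudocount or further normalization. The 66 control probe sets were left out. Of 12422 others, 10833 matched 1 gene in the platform annotation (symbols updated with RefSeq, GRCm38.p6), 396 several and 1193 none. The probe set with the highest mean stood for each gene (8251). The log2 values were fitted with limma 3.58.1 in R 4.3.3 (lmFit, eBayes; population with background as a block, 6 residual degrees of freedom), adjusted by Benjamini-Hochberg over all probe sets, with a threshold of 0.05. Backgrounds and their interaction came from 4 group means. The fits were tested on simulated data. Genes named were the 15 largest changes without overlap in each direction, a panel of 48 genes, and the 5 smallest interaction p. Each of 43 lists gave up to 6 passing members in each direction and up to 4 that did not pass. Members and lists were chosen with earlier results of these data known. Alternatives tried are in the closing section.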

Additional observations from a re-analysis of the deposited data

Results flagged for a closer look

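In 116 groups of 4 or 5 arrays examined (2 control differences, 15 marker lists and the panel genes, each in both populations), 7 held an array far from the others; chance flags about 1 in 20 groups. Among T cells, array B6g7 1 had a Gapdh 3' minus 5' difference of 3.84 (others 2.83 to 3.12). The same array held the highest mean of pancreas markers, 6.65 (others 5.32 to 5.58), the lowest of plasma cell markers, 5.32 (others 5.42 to 5.45), and the highest Cd79a, 6.41 (others 5.87 to 5.99). T cell array NOD 1 held the lowest mean of granulocyte markers, 4.35 (others 4.71 to 4.76). T cell array B6g7 2 read 7.06 for Ccl5 (others 5.16 to 5.62). Among NK cells, array B6g7 2 read 7.40 for Klrg1 (others 6.54 to 6.66).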

How the results depend on the processing

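All 2395 probe sets that passed kept their direction with all 24 arrays, without the background block, with quantile or median scaling, with a trended robust prior, with array weights, with a replicate block and without any single array, and so did the 2016 of them fitted without the 40% dimmest probe sets; counts there were 1882 to 3063 outside the single arrays. The 2395 were called on arrays that these fits reuse, so the kept direction is no independent test. The replicate block gave 1996 passing probe sets. Deviations of same-numbered NK and T cell arrays from their group means correlated at r of -0.09 in B6g7 and at 0.12 and 0.05 in NOD. In B6g7, with 2 arrays per group, both numbers give the same r by construction. So few values cannot decide whether the numbers pair samples, and the main fit did not treat them as pairs. Leaving out single arrays gave 1340 to 2821 passing; the counts of probe sets higher in NK cells were 571 to 1329 and of probe sets lower in NK cells 769 to 1689. The count of passing probe sets moved by over 1.5 times without NK cell arrays NOD 2 (1340) and NOD 1 (1497), as did that of probe sets higher in NK cells (571, 651, and 679 without NK cell array B6g7 2) and that of probe sets lower in NK cells (769 and 846). Without the 2 granulocyte-rich NK cell arrays, chosen after seeing the data, 879 passed (380 higher, 499 lower); without the 2 liver-bearing T cell arrays, 2675. With the 3 NK cell arrays that carry a serial code set against the T cell array of the nearest code (all NK cell codes were higher than all T cell codes; the spread was that of the 24-array fit, with the lone array assumed to vary like the rest), 329 passed (168 higher, 161 lower) and 2393 kept their direction. With the Gapdh difference as covariate, 22 passed (17 higher, 5 lower), and 16 named genes turned direction: Satb1 to 0.079, Egr1 to 0.0105, Egr2 to 0.48, Flt3l to 0.0802, Cx3cr1 to -0.12, Lgals1 to -0.32, Cd28 to 0.59, Ngp to -0.89, S100a8 to -1.21, S100a9 to -1.01, Lyz2 to -0.18, Camp to -0.80, Hba-a1 to -0.97, Cyc1 to -0.0385, Irf9 to 0.15 and Trim30a to 0.25; the cause was not tested. Interaction calls numbered 1 with all 24 arrays and 0 to 189 without single arrays, 189 of them without T cell array B6g7 2. Of 189 genes examined, 161 passed and 123 did so whichever array was left out. The number of arrays limits the precision.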
